A study of Homo sapiens with 10 samples.

Results

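The genes for the subunits, activators and assembly chaperones of the proteasome were followed in human cardiomyocytes after knockdown of the RNA named CLIPPER. They were taken by gene symbol, as protein-coding genes named PSMA, PSMB, PSMC, PSMD, PSME, PSMF or PSMG with a number, and this gave 48 of the 78932 gene identifiers in the count table. The cells were cardiomyocytes differentiated from the H1 line, which is a standard line of human embryonic stem cells. In the tested cells, beating cultures received 50 nM of a GapmeR against CLIPPER on day 9 of differentiation, and in the control cells 50 nM of a control GapmeR, and both were collected 48 hours later. GapmeRs are short antisense DNA strands with modified ends, and the RNA they bind is cut by RNase H. Total RNA of 5 knockdown and 5 control libraries was sequenced. Both groups come from this 1 line, and the labels do not say whether the 5 replicates of a group were separate differentiations, so the p-values measure only the spread between these samples, which may be technical.

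The proteasome degrades proteins that carry a ubiquitin chain. Its 20S core is a barrel of stacked rings, with alpha subunits at both ends and beta subunits, some of them proteolytic, inside. The 19S particle caps the barrel: its base holds a ring of ATPases that unfold the substrate, and its lid removes the ubiquitin. In cardiac muscle the proteasome is known for the turnover of sarcomere proteins.

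Library totals were 32879710 to 42073139 counts in the knockdown and 33516136 to 45052044 counts in the control group, and 1 count stood for 0.0213 to 0.0315 CPM, the count scaled to a common normalised library size. No gene in the annotation used here is named CLIPPER, so the targeted RNA was not analysed here. The cardiomyocyte label was checked against 9 markers, all of them detected, whose summed level was 9787 to 16035 CPM in knockdown and 25261 to 34747 CPM in control libraries. Of these 9 genes, 7 were lower in the knockdown and 0 higher, while TNNI3 (log2 fold change -0.07) and MYL7 (-0.47) did not pass. The summed level of 7 fibroblast and stromal markers was 943 to 1105 CPM in knockdown and 1260 to 1379 CPM in control libraries, with 1 higher and 4 lower. All 4 smooth muscle markers and both tested endothelial markers were lower. Pluripotency markers summed to 1.93 to 3.36 CPM in knockdown and 0.79 to 1.17 CPM in control libraries, with DPPA4 higher and NANOG at 2 counts in all knockdown and 4 in all control libraries. In such bulk samples, fewer cells of a type and less RNA per cell cannot be told apart. The part of these shifts in the results on proteasome genes was not tested. On the first principal component, knockdown replicates 2 and 1 were the closest to the control libraries (49.5 and 93.3, against 119 to 140 in the other knockdown and -108 to -102 in the control libraries), so the main counts are also given without them. These replicates were chosen from the same data for lying nearest the controls. Leaving them out therefore favours larger differences and is no independent check.

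Of the 48 genes, 46 passed the filter on low counts and were tested. PSMA8, the alpha subunit of the testis, had 0 counts in all 10 libraries, which allows a level of up to 0.0638 to 0.0945 CPM (3 counts) in a library. PSMB11, the catalytic subunit of the thymus, had 0, 0, 3, 2 and 3 counts in knockdown libraries 1 to 5, against 3, 0, 0, 0 and 0 in control libraries 1 to 5, too few for a comparison. All values per library below are given in the order of replicates 1 to 5.

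The proteasome genes did not move as a unit (the plot of fold changes by role). In edgeR's quasi-likelihood test with an adjusted p below 0.05, the knockdown level was higher for 23 of 46 (50%) and lower for 12 (26.1%). Of all 21033 genes tested, 79.7% passed, 40.1% higher and 39.6% lower. Of the protein-coding genes tested, 34.7% were higher and 47% lower. The median log2 fold change was 0.26 for the proteasome genes, 0.01 for all genes tested and -0.22 for coding genes. Among the proteasome genes, 6 of 46 were higher and 6 lower by at least 2-fold, where 24.3% of all genes tested were higher and 24.2% lower by that much. Their log2 fold changes lay between -1.87 (PSMD5) and 1.82 (PSMD10). In 36 of the 46 the CPM of the groups did not overlap, 23 with the knockdown above and 13 with it below. The groups did not overlap in 67.5% of all genes tested, 33.7% with the knockdown above and 33.8% with it below. Without knockdown replicates 1 and 2 the counts were 25 higher and 14 lower, with 41.1% of all genes in that fit higher and 41.4% lower. Upper-quartile scaling moved the fold change of all genes by 0.20 at the median and gave 27 higher and 11 lower, with 45.5% of all genes higher and 34.6% lower, so each change is given relative to that of most genes.

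**Figure D1:**
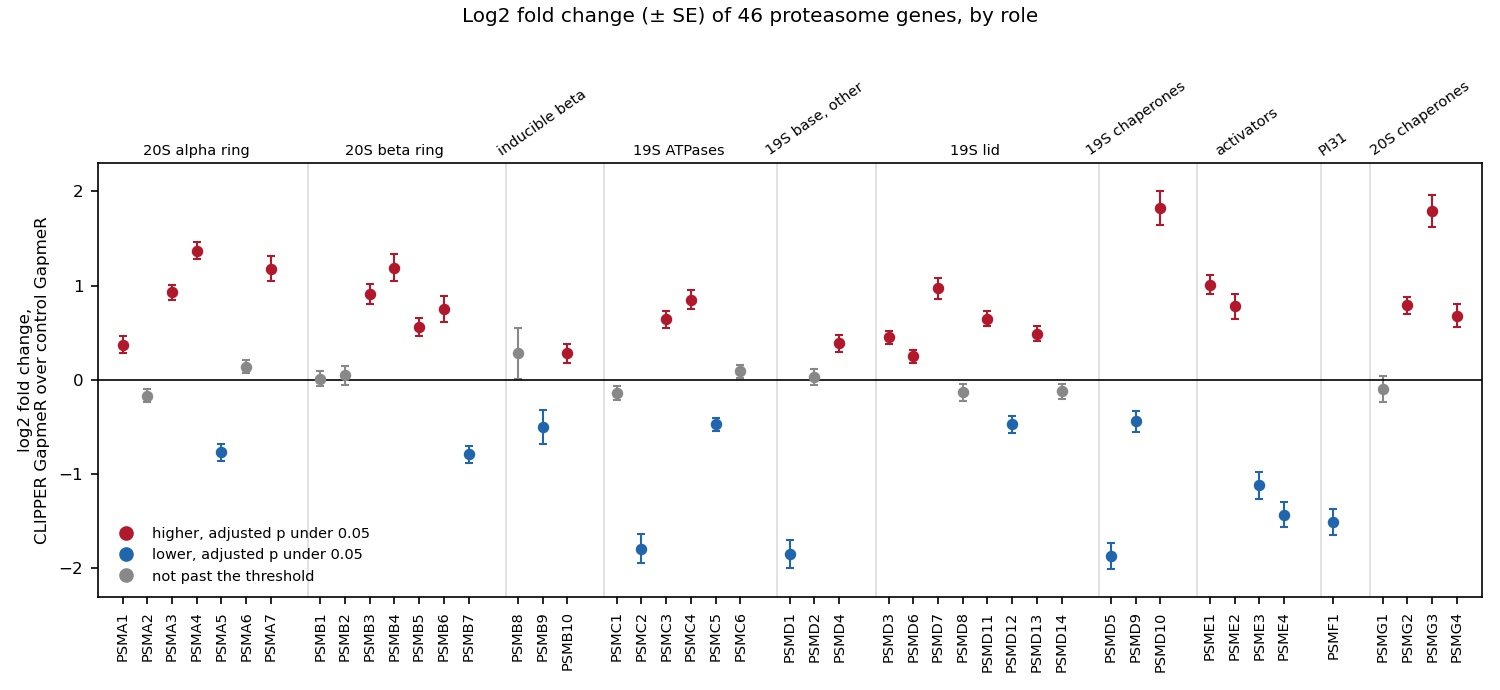
Log2 fold change (y axis, CLIPPER GapmeR over control GapmeR, ± SE) of the 46 tested proteasome genes (x axis), ordered by role, with colour for the outcome of edgeR's test. In every role of more than 1 gene, points lie on both sides of 0, from -1.87 for PSMD5 to 1.82 for PSMD10.

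In the alpha ring, whose subunits gate the entrance of the core, 4 of 7 tested genes rose and 1 fell. Beside this and the counts of each role below stand the shares of all genes tested, 40.1% higher and 39.6% lower. PSMA4 had 159, 151, 195, 196 and 184 CPM in knockdown libraries, against 67.7, 72.3, 64.5, 70.1 and 68.2 CPM in control libraries. Every knockdown library stood above every control library, and the rise was 2.58-fold (log2 fold change 1.37 ± 0.09 SE, adjusted p = 1.26e-07 in edgeR's test). PSMA7 had 202, 196, 289, 300 and 271 CPM in knockdown and 119, 109, 106, 111 and 110 CPM in control libraries, a 2.27-fold rise in which replicates 1 and 2 were the lowest of the knockdown. PSMA3 had 88.6, 80, 95.9, 102 and 92.1 CPM in knockdown and 48.2, 50.1, 45.1, 48.7 and 48.9 CPM in control libraries, 1.9-fold higher. PSMA1 rose 1.29-fold, to 101 ± 11.3 CPM in the knockdown against 78.3 ± 2.64 CPM in the control group (SD, n = 5). PSMA5 went the other way, with 30.7, 38.1, 33.6, 28.3 and 32.7 CPM in knockdown and 55.4, 56.4, 55.3, 56.1 and 55 CPM in control libraries. It was 1.7-fold lower, with no overlap, and varied less among controls than any other tested proteasome gene (coefficient of variation 1.04%). PSMA6 (90.1 to 101 CPM in knockdown, 82.8 to 89.7 CPM in control libraries) and PSMA2 (69.7 to 78.8 CPM in knockdown, 79.7 to 90.6 CPM in control libraries) did not overlap between the groups but did not pass the test, with adjusted p = 0.0875 and 0.0537 in edgeR's test. PSMA6 passed with DESeq2 (log2 fold change 0.16), with a filter at a mean of 1 CPM (0.19) and under upper-quartile scaling (0.34). PSMA2 passed without knockdown replicate 2 (log2 fold change -0.18), control replicate 2 (-0.21) or control replicate 5 (-0.21), and was 0.03 under upper-quartile scaling.

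In the beta ring, 4 of 7 genes rose and 1 fell. PSMB4, a structural subunit, had 210, 189, 302, 325 and 291 CPM in knockdown and 120, 121, 111, 115 and 111 CPM in control libraries. This was 2.28-fold higher without overlap, and PSMB3, likewise structural, rose 1.88-fold. The structural subunit genes PSMB1 and PSMB2 had log2 fold changes of 0.01 and 0.05, which lay between -0.11 and 0.20 and between -0.01 and 0.25 over the other settings tried. PSMB1 passed under upper-quartile scaling (0.20) and PSMB2 without knockdown replicates 1 and 2 (0.16). The 3 proteolytic subunits did not share a direction. PSMB5, which cleaves after hydrophobic residues, had 131, 126, 156, 172 and 144 CPM in knockdown and 104, 100, 95.9, 98.9 and 95.6 CPM in control libraries. PSMB6, which cleaves after acidic residues, had 111, 107, 170, 180 and 158 CPM in knockdown and 90.3, 85.2, 87.7, 84 and 86.1 CPM in control libraries. PSMB7, which cleaves after basic residues, had 40.9, 53.2, 43, 42 and 44.1 CPM in knockdown and 79.8, 80.9, 74.4, 75.1 and 76.9 CPM in control libraries. None of the 3 overlapped between the groups, and the knockdown was above the control for PSMB5 and PSMB6 and below it for PSMB7. The log2 fold changes were 0.56 ± 0.10 for PSMB5, 0.75 ± 0.14 for PSMB6 and -0.79 ± 0.09 for PSMB7 (SE; adjusted p = 1.47e-04, 3.85e-04 and 3.2e-06 in edgeR's test).

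The inducible subunits replace the proteolytic ones in the immunoproteasome under interferon and are abundant in leukocytes. PSMB8 and PSMB9 were expressed at low levels, at most 3.03 CPM in any library, and PSMB10 at 9.73 to 13.9 CPM. PSMB8, the counterpart of PSMB5, had 1.08, 1.83, 2.65, 3.03 and 2.84 CPM in knockdown and 1.66, 1.77, 2.42, 2.13 and 1.4 CPM in control libraries. Its groups overlapped and it did not pass (log2 fold change 0.28 ± 0.27 SE, adjusted p = 0.347 in edgeR's test), with 0.59 without knockdown replicates 1 and 2, where it passed. PSMB9, the counterpart of PSMB6, had 1.17, 2.08, 1.37, 1.15 and 1.61 CPM in knockdown and 1.96, 2.23, 2.12, 1.89 and 2.28 CPM in control libraries. PSMB9 passed as lower (log2 fold change -0.50 ± 0.18 SE, adjusted p = 0.0229), although knockdown replicate 2 lay among the controls, and the call was lost without knockdown replicate 1 (-0.42), 3 (-0.47) or 4 (-0.42) and under upper-quartile scaling (-0.31). PSMB10, the counterpart of PSMB7, had 10.6, 12.6, 13.8, 13.9 and 13 CPM in knockdown and 10.8, 11.7, 9.73, 10.1 and 10.3 CPM in control libraries. PSMB10 passed as higher (log2 fold change 0.28 ± 0.10 SE, adjusted p = 0.0221), with knockdown replicate 1 among the controls, and the call was lost without knockdown replicate 3 (0.26) or control replicate 3 (0.23), 4 (0.24) or 5 (0.25), without the filter on low counts (0.24) and with the replicate number as a block (0.24).

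Per kilobase of exon the PSMB8 level was 0.00685 ± 0.00195 of the PSMB5 level in knockdown and 0.00844 ± 0.00193 in control libraries (SD, n = 5), and the ranges overlapped. For PSMB9 over PSMB6 the ratio was 0.00472 ± 0.00219 in knockdown and 0.0105 ± 9.36e-04 in control libraries, with ranges of 0.00276 to 0.00841 and 0.00941 to 0.0115. Its shift combines the rise of PSMB6 (log2 fold change 0.75) with the fall of PSMB9 (-0.50), a call that was lost under some settings. The PSMB10 level was 0.318 ± 0.0444 of the PSMB7 level in knockdown and 0.149 ± 0.006 in control libraries, with ranges of 0.261 to 0.365 and 0.144 to 0.16. The shift in this last ratio combines the fall of PSMB7 with the smaller difference of PSMB10. The 5 leukocyte markers summed to 1.17 to 2.67 CPM in knockdown and 0.127 to 0.418 CPM in control libraries. CD3E had 0 counts in all libraries and PTPRC, the pan-leukocyte gene, 5 counts in all knockdown and 12 in all control libraries. CD68 was the 1 marker tested and rose, with a log2 fold change of 3.66.

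**Figure D2:**
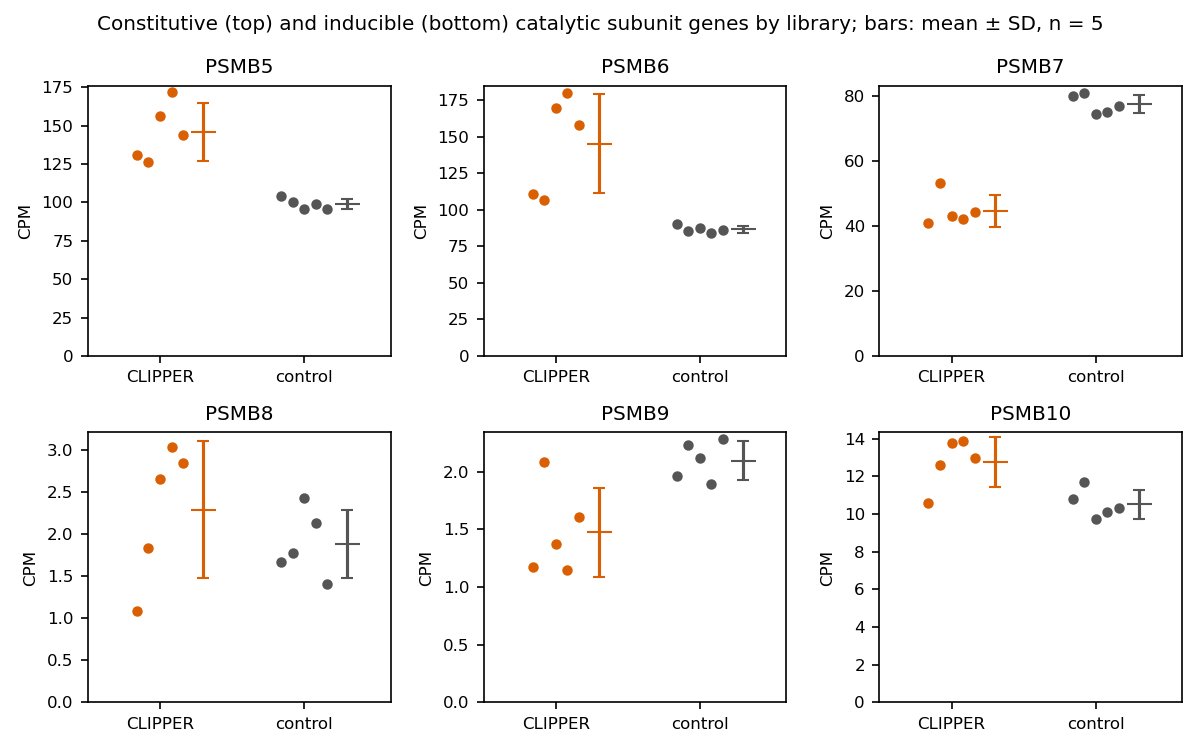
CPM (y axis) of the constitutive catalytic subunit genes PSMB5, PSMB6 and PSMB7 (top) and of the inducible PSMB8, PSMB9 and PSMB10 (bottom) in each library of the CLIPPER GapmeR and control GapmeR groups (x axis), with mean ± SD of 5 libraries. PSMB7 lies at 40.9 to 53.2 CPM in the knockdown, below the 74.4 to 80.9 CPM of the controls, and PSMB8 and PSMB9 do not exceed 3.03 CPM in any library.

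Among 10 genes of antigen presentation, the pathway that uses peptides from the immunoproteasome, 2 rose and 6 fell, with a median log2 fold change of -0.50. The shares over all genes tested were 40.1% higher and 39.6% lower. B2M, the light chain of MHC class I, rose 2.26-fold and the peptide transporter gene TAP1 1.94-fold. NLRC5, the transactivator of MHC class I genes, fell 4.74-fold, to 0.685 ± 0.15 CPM in the knockdown against 3.27 ± 0.612 CPM in the control group (SD, n = 5). TAP2, the partner of TAP1, fell 2.05-fold and the peptide-trimming enzyme gene ERAP1 1.78-fold.

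In the base of the 19S particle the 6 ATPases divided, 2 higher, 2 lower and 2 not passing. PSMC2 had 21.9, 34.1, 21.4, 18.1 and 20.7 CPM in knockdown and 82.5, 79.6, 80.3, 81.6 and 78.6 CPM in control libraries. Even its highest knockdown library, replicate 2, was below all controls, and it was 3.46-fold lower (log2 fold change -1.79 ± 0.15 SE, adjusted p = 4.48e-07 in edgeR's test). PSMC5 fell 1.39-fold, to 69.9 ± 2.67 CPM in the knockdown against 97 ± 2.34 CPM in the control group (SD, n = 5). PSMC4 rose 1.81-fold and PSMC3 1.55-fold, both without overlap. PSMC6 (log2 fold change 0.09) and PSMC1 (-0.14, and 0.06 under upper-quartile scaling) did not pass, although all 5 knockdown libraries of PSMC1 (115 to 124 CPM) were below its controls (128 to 133 CPM). PSMC6 passed with DESeq2 (0.11) and under upper-quartile scaling (0.28), and PSMC1 passed as lower with DESeq2 (-0.11) and without knockdown replicates 1 and 2 (-0.14).

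The large scaffold subunits of the base, PSMD1 and PSMD2, differed. PSMD1 had 42.1, 62.1, 38.5, 32.5 and 37.1 CPM in knockdown, against 160, 156, 147, 151 and 151 CPM in control libraries. It was 3.6-fold lower with a wide gap between the groups (log2 fold change -1.85 ± 0.15 SE, adjusted p = 4.26e-07 in edgeR's test). PSMD2 had 281, 279, 277, 285 and 267 CPM in knockdown and 283, 266, 277, 270 and 263 CPM in control libraries, with full overlap and a log2 fold change of 0.03 ± 0.08 (SE). It stood between -0.004 and 0.23 over the other settings and passed under upper-quartile scaling. PSMD4, a ubiquitin receptor, rose 1.31-fold.

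In the lid, which removes ubiquitin chains, 5 of 8 genes rose and 1 fell, where 40.1% of all genes tested rose and 39.6% fell. PSMD7 had 136, 135, 174, 188 and 169 CPM in knockdown and 84.4, 87.3, 78.8, 79.2 and 80.9 CPM in control libraries. The groups were apart by a wide margin, and the rise was 1.96-fold. PSMD7 forms a pair with PSMD14, the enzyme that cuts off the ubiquitin chain, which did not pass (43.7 to 51.1 CPM in knockdown, 47.2 to 54.8 CPM in control libraries, log2 fold change -0.12 ± 0.08 SE). PSMD11 rose 1.57-fold, PSMD13 1.4-fold, PSMD3 1.37-fold and PSMD6 1.19-fold. PSMD12 was the 1 lid gene that fell, 1.39-fold, to 37 ± 4.26 CPM in the knockdown against 51.4 ± 3.39 CPM in the control group (SD, n = 5). PSMD8 did not pass (log2 fold change -0.13). The PSMD6 call was lost without the filter on low counts (adjusted p = 0.107) and with the replicate number as a block (adjusted p = 0.0504) in edgeR's test.

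Assembly chaperones held the extremes of the whole set, in opposite directions. PSMD5, PSMD9 and PSMD10 each hold ATPases of the base while it is built and are absent from the finished particle. PSMD10, also called gankyrin, had 74.7, 63.1, 115, 131 and 108 CPM in knockdown and 29.9, 25.3, 31.3, 26.9 and 26.2 CPM in control libraries. It rose 3.52-fold, and its lowest knockdown library was above the highest control (log2 fold change 1.82 ± 0.18 SE, adjusted p = 1.9e-06 in edgeR's test). PSMD5 had 17.5, 21.6, 13.5, 12.4 and 14.2 CPM in knockdown and 61.7, 56.5, 56.3, 59.5 and 57.1 CPM in control libraries. It fell 3.67-fold, again without overlap (log2 fold change -1.87 ± 0.14 SE, adjusted p = 2.2e-07). PSMD9 fell 1.35-fold, and PAAF1, the remaining chaperone of this kind, which the symbol rule does not take, fell 3.2-fold, to 13.7 ± 2.2 CPM in the knockdown against 43.9 ± 1.17 CPM in the control group (SD, n = 5).

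Of the 4 chaperones that assemble the alpha ring of the core, 3 rose. PSMG3 had 40, 34.3, 57, 67.2 and 56.7 CPM in knockdown and 14.7, 14.9, 15.4, 15.4 and 13.3 CPM in control libraries, 3.46-fold higher. Its partner PSMG4 had 14.8, 13.9, 10.3, 10.3 and 11.6 CPM in knockdown and 6.95, 7.39, 8.03, 7.25 and 8.35 CPM in control libraries. Both were above all controls in every knockdown library, but PSMG3 was lowest and PSMG4 highest in knockdown replicates 1 and 2. PSMG2 rose 1.73-fold, while its partner PSMG1 overlapped between the groups (7.86 to 11.8 CPM in knockdown, 8.5 to 12.3 CPM in control libraries) and did not pass. Without knockdown replicates 1 and 2 PSMG1 passed as lower (log2 fold change -0.29).

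Of the 4 genes of activators, which open the core without ubiquitin, 2 rose and 2 fell, where 40.1% of all genes tested rose and 39.6% fell. PSME1, a subunit of the interferon-inducible ring PA28 alpha-beta, had 171, 144, 197, 193 and 197 CPM in knockdown and 90.8, 87, 95.4, 89.3 and 84.1 CPM in control libraries. PSME2, its partner, had 90.9, 73.7, 117, 123 and 118 CPM in knockdown and 62, 58.9, 64, 61.9 and 57.7 CPM in control libraries. Both rose in every knockdown library, 2.02-fold for PSME1 and 1.71-fold for PSME2. PSME3, the nuclear PA28 gamma, had 37.3, 52.4, 34.7, 29.8 and 32.9 CPM in knockdown and 82.7, 84.3, 74.8, 82.6 and 81.2 CPM in control libraries. PSME4, the large activator PA200, had 51.7, 64.5, 42.2, 38.7 and 40.5 CPM in knockdown and 128, 133, 124, 133 and 124 CPM in control libraries. PSMF1, the proteasome binding protein PI31, had 29.5, 40.1, 25, 22.8 and 25.7 CPM in knockdown and 84.6, 81.6, 77.3, 84.6 and 80.4 CPM in control libraries. These 3 fell without overlap, 2.17-fold for PSME3, 2.7-fold for PSME4 and 2.85-fold for PSMF1, and replicate 2 was the highest knockdown library in each. Adjusted p-values of the 5 genes lay between 8.57e-07 (PSMF1) and 1.38e-04 (PSME2) in edgeR's test.

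**Figure D3:**
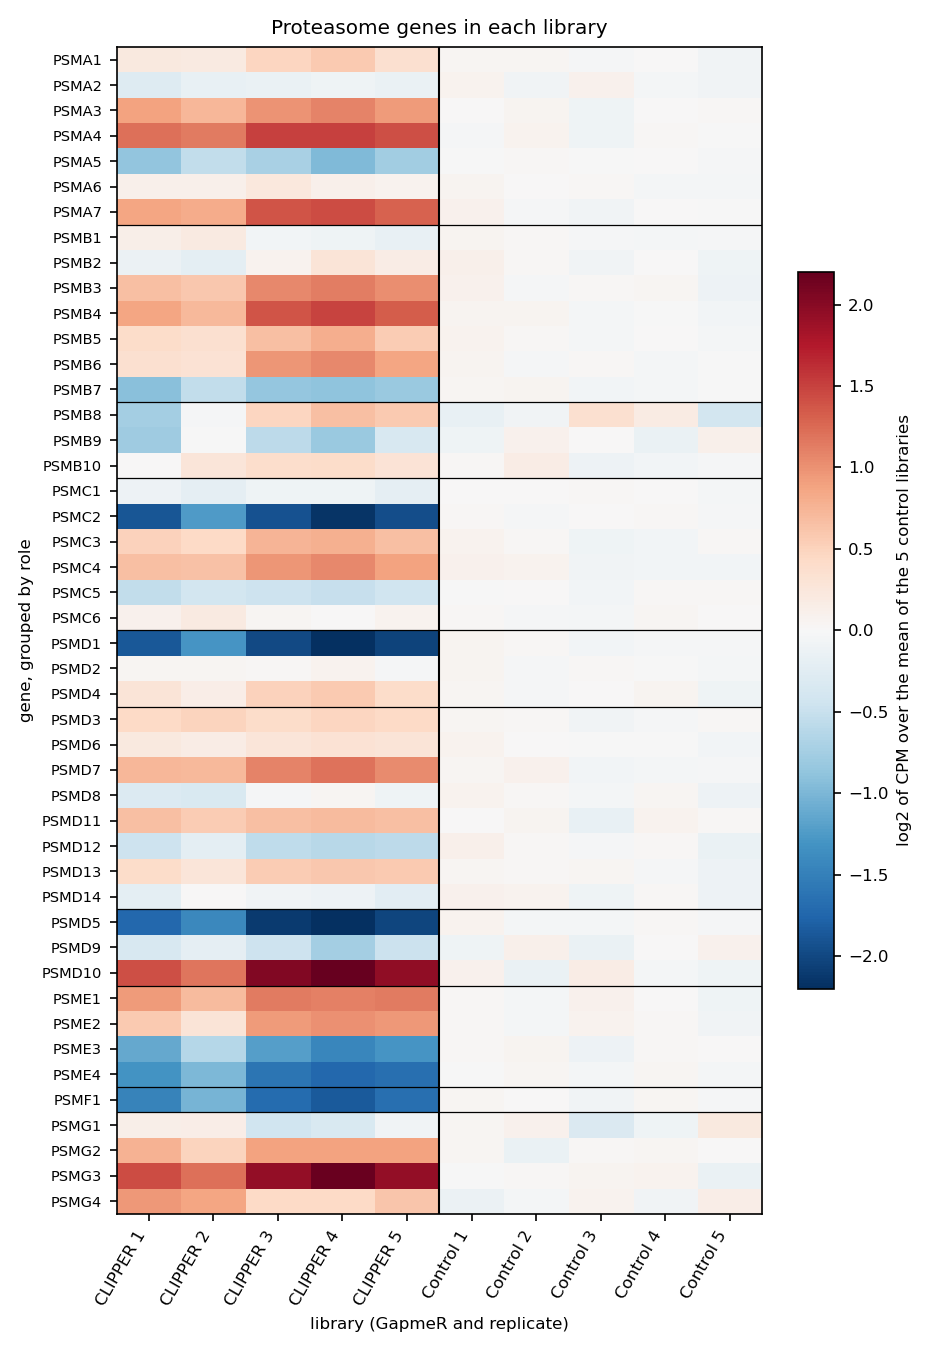
Log2 of CPM over the mean of the 5 control libraries (colour) for the 46 tested proteasome genes (rows, grouped by role) in each library (columns, CLIPPER GapmeR left of control GapmeR). Rows such as PSMC2, PSMD1, PSMD5, PSME4 and PSMF1 are blue and rows such as PSMA4, PSMD10 and PSMG3 red in all 5 knockdown libraries, with paler colours in replicate 2.

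Across libraries, each knockdown library had 25 to 27 of the 46 genes above all controls and 15 to 18 below all controls. These were 54.3% to 58.7% above and 32.6% to 39.1% below. Of all genes tested, 42.6%, 40.8%, 43.6%, 43.8% and 43.7% were above all controls in knockdown libraries 1 to 5, and 42.2%, 39.9%, 43.7%, 44.3% and 43.5% below. The middle spread of the log2 differences of the 46 genes from the control mean (interquartile range) was 0.74 in knockdown replicate 2 and 1.10 to 1.45 in the other 4, against 0.06 to 0.09 in control libraries. Over all genes tested it was 1.36 in knockdown replicate 2 and 1.73 to 2.27 in the other 4 knockdown libraries. Within groups the median coefficient of variation of a proteasome gene was 12.1% in the knockdown and 4.33% in the control group. The 48 genes together took 0.412% to 0.445% of a knockdown library's counts and 0.331% to 0.347% of a control library's. Genes of the mitochondrial genome took 14.4% ± 2.99 of counts in knockdown and 11.3% ± 0.865 in control libraries (SD, n = 5), and with them removed 23 proteasome genes were again higher and 12 lower.

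Because subunits of a particle are built in at fixed proportions, their levels per length were set side by side (the plot of levels per length). In the 20S core PSMA7 had the highest mean level in the knockdown, 144 ± 28 CPM per kb of exon, against 63.4 ± 2.84 in the control group, and PSMA5 the lowest, 5.7 ± 0.634 in the knockdown against 9.7 ± 0.101 in the control group (SD, n = 5). The highest of the 14 core genes exceeded the lowest 16.9- to 34.6-fold in knockdown and 6.53- to 7.04-fold in control libraries. In the 19S particle PSMC4 (67.6 ± 8.41 in the knockdown, 37.4 ± 2.2 CPM per kb in the control group) lay at the top in 4 knockdown libraries. PSMC2 had 2.69 ± 0.725 CPM per kb in the knockdown and 9.32 ± 0.178 in the control group, and PSMD1 2.69 ± 0.727 in the knockdown and 9.67 ± 0.319 in the control group. Here the ratio of the highest to the lowest of 17 genes was 14.8 to 37.6 in knockdown and 7.33 to 8.46 in control libraries. The length of the longest transcript in place of all exons changed the levels and kept the groups apart. The ratio was then 19.2 to 39.5 in knockdown and 7.14 to 8.03 in control libraries for the core, and 12.7 to 31.7 in knockdown and 8.35 to 9.63 in control libraries for the 19S particle. No other set of genes was compared in this way. In every knockdown library the log2 differences from the control mean, given above, spread further over all genes tested than over the proteasome genes.

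**Figure D4:**
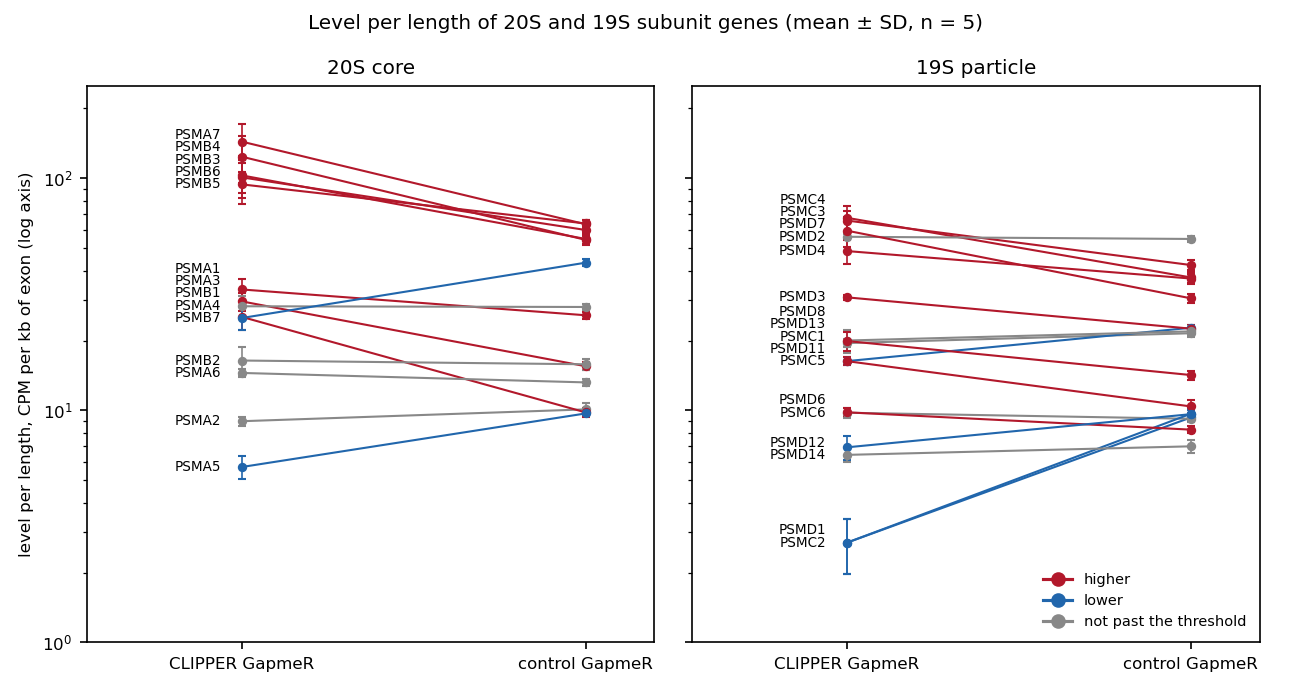
Level per length (y axis, CPM per kb of exon, log axis, mean ± SD of 5 libraries) of 14 core and 17 19S genes in the CLIPPER GapmeR and control GapmeR groups (x axis), lines joining the same gene. The genes spread further apart in the knockdown, where PSMC2 and PSMD1 stand at 2.69 CPM per kb, than in the control group, where they stand at 9.32 and 9.67 CPM per kb. Other sets of genes were not compared.

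Fold change was set against gene span, the length from start to end with introns. Across the 46 genes the rank correlation of fold change with span was -0.529, and across 14777 coding genes -0.599. This is a description, since genes share libraries and are not independent replicates. All 4 proteasome genes of up to 3 kb rose, where the median log2 fold change of coding genes was 0.99. The 11 genes of 3 to 10 kb had a median of 0.64 (6 higher, 1 lower), where that of coding genes was 0.71. In the 19 genes of 10 to 30 kb (9 higher, 6 lower) and the 8 of 30 to 100 kb (3 higher, 3 lower) the median was 0.09 in both ranges, where that of coding genes was 0.27 and -0.48. Of the 4 genes of 100 to 300 kb, PSMD1 and PSME4 fell, PSMA1 rose and PSMD14 did not pass, where the coding median was -1.30. Of the coding genes, 74.7% rose and 6.94% fell at up to 3 kb, and 64.4% and 15.2% at 3 to 10 kb. At 10 to 30 kb 48.9% rose and 29.1% fell, and at 30 to 100 kb 23.2% and 57%. At 100 to 300 kb 6.78% rose and 82.7% fell. PSMA1 (139 kb, log2 fold change 0.37), PSMG2 (70.9 kb, 0.79) and PSMG4 (72 kb, 0.68) were higher by 1.67, 1.27 and 1.16 than the median of coding genes in their span range. Exons of PSMA1, PSMG2, PSMG4, PSMD11 and PSMG3 overlap those of other annotated genes, and exons of PSMD14, PSMD10 and PSMA4 do not. The span covers all annotated transcripts of a gene, and which of them these cells make was not determined. PSMD5 (27.5 kb), PSME3 (19.4 kb), PSMC2 (41.8 kb) and PSMC5 (4.88 kb) differed from that median by -2.14, -1.38, -1.31 and -1.18 on the log2 scale. PSMA5 (27.4 kb) and PSMF1 (76.2 kb) each differed from it by -1.03. The other activator genes, PSME1 (2.81 kb), PSME2 (4.21 kb) and PSME4 (107 kb), differed from it by 0.02, 0.07 and -0.14. The part of gene span in the changes of the activators was not tested.

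**Figure D5:**
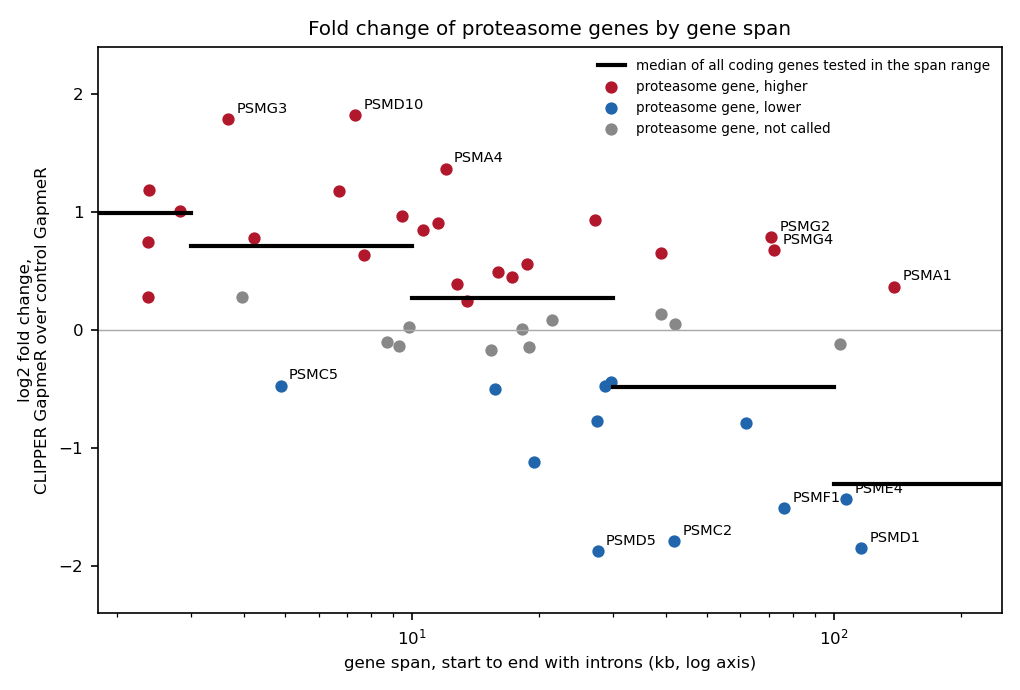
Log2 fold change (y axis) of the 46 tested proteasome genes against gene span (x axis, kb, log axis), with black bars for the median of all coding genes tested in each span range. The bars fall from 0.99 at up to 3 kb to -1.30 at 100 to 300 kb, with PSMD10 and PSMG3 well above their bar and PSMD5 and PSMC2 well below.

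Proteasome genes are known targets of NFE2L1, a transcription factor of the endoplasmic reticulum that is released when the proteasome fails and binds antioxidant response elements. RefSeq promoters (GRCh38.p14, 250 bases before to 50 after a start) were given for 51 starts of 42 of the 48 genes. The core of that element, TGACNNNGC on either strand, was in 15 of 51 starts (29.4%) and in 13.3% of all 35116 starts. It was present in 7 of 19 matched genes that rose, 7 of 11 that fell and 1 of 10 that did not pass. CCAAT, the NF-Y motif, was in 39.2% of proteasome starts and 34.6% of all, and CCGGAAG, the core of the ETS site, in 29.4% and 10.3%. No overlap between the motifs was removed, and a match is a string of letters and not a bound site. The stretches around the element are shown for the 4 genes with the largest rises and the 2 with the largest falls among those with a match before the start. Each is read 5′ to 3′ on the strand of its gene, with the match in capitals.
PSMA4 (chr15:78540650-78540678, plus strand): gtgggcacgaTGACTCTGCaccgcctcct
PSME1 (chr14:24136098-24136126, plus strand): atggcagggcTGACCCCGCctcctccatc
PSMB3 (chr17:38752627-38752655, plus strand): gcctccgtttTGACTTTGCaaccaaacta
PSMG2 (chr18:12658689-12658717, plus strand): cagtttcccgTGACCCCGCggccgctctg
PSMD5 (chr9:120843038-120843066, minus strand): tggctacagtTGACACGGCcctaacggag
PSME4 (chr2:53971009-53971037, minus strand): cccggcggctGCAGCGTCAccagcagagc
The matches began 126 bases before a start in PSMA4, 86 in PSME1, 104 in PSMB3, 39 in PSMG2, 134 in PSMD5 and 34 in PSME4, where the element reads on the opposite strand. The stretch of PSMA4 lies in an exon of other PSMA4 transcripts and that of PSMG2 in an exon of PSMG2. Those of PSMD5 and PSME4 lie in exons of the opposite-strand genes CUTALP and ACYP2, and those of PSME1 and PSMB3 in no annotated exon. Matches therefore stood before genes that rose, such as PSMA4, and before genes that fell, such as PSMD5.

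Of 13 genes of the NFE2L1 axis, 5 rose and 5 fell, with a median log2 fold change of 0.03. Over all genes tested the shares were 40.1% higher and 39.6% lower. NFE2L1 itself, singled out after its values were seen, had 502 ± 18.5 CPM in the knockdown and 536 ± 24.9 CPM in the control group (SD, n = 5) and did not pass (log2 fold change -0.09 ± 0.08 SE, adjusted p = 0.32 in edgeR's test). BTRC, a substrate receptor of the ubiquitin ligase that marks NFE2L1 in the nucleus, fell 6.78-fold, MAFG, a small MAF partner, 2.21-fold and SEL1L, of the ligase that retrieves it from the endoplasmic reticulum, 2.16-fold. The glycosyltransferase gene OGT rose 1.89-fold, NFE2L3, a relative, 1.75-fold and MAFK 1.69-fold.

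Other partners of the proteasome, from lists of genes outside the symbol rule, also moved both ways. So did all genes tested, 40.1% higher and 39.6% lower. Of 13 genes of associated proteins, 7 rose and 4 fell, and the median change was 0.33 on the log2 scale. PITHD1 rose 2.98-fold, the ubiquitin receptor gene ADRM1 2.14-fold, to 137 ± 26.9 CPM in the knockdown against 63.7 ± 2.9 CPM in the control group (SD, n = 5), and AKIRIN2, which brings proteasomes into the nucleus, 2.13-fold. PAAF1, given above, TXNL1, a thioredoxin-like protein bound to the 19S particle (2.42-fold), and the scaffold gene ECPAS (1.92-fold) fell. Of 6 genes for ubiquitin and its activating enzymes, 3 rose and 1 fell. RPS27A, which encodes ubiquitin fused to a ribosomal protein, rose 2.19-fold, and the polyubiquitin gene UBB did not pass (log2 fold change 0.25). The activating enzyme gene UBA1 rose 1.56-fold, and UBA6 fell 2.01-fold. Among 12 genes of shuttle factors and the VCP complex, which deliver substrates, 6 rose and 6 fell. UBXN1 rose 2.36-fold and UBQLN4 1.86-fold, while NPLOC4 fell 4.95-fold, FAF1 3.99-fold and UFD1 1.73-fold.

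For comparison, the COP9 signalosome, which is built like the lid, had 9 of 10 genes higher and 1 lower, and its median change was 0.57 on the log2 scale. COPS5, the relative of PSMD14, rose 2.04-fold, COPS3 1.73-fold and COPS2 1.54-fold, and COPS7A fell 1.93-fold. The CCT chaperonin, another ring of the cytosol, had 6 of 8 genes higher and 1 lower, with a median of 0.55. Over all genes tested the shares were 40.1% higher and 39.6% lower. The median span was 21.1 kb for the COP9 genes, 17.2 kb for the CCT genes and 16.6 kb for the proteasome genes. Of the coding genes that span 30 kb or less, 56.1% rose and 22.7% fell. The median change of these coding genes was 0.48. TCP1 rose 2.33-fold, CCT7 2.02-fold and CCT8 1.65-fold. CCT5 passed as lower (log2 fold change -0.18, adjusted p = 0.0434 in edgeR's test), a call lost without knockdown replicate 1 (-0.17), 3 (-0.18), 4 (-0.18) or 5 (-0.16) or control replicate 1 (-0.18), 2 (-0.19) or 4 (-0.20). The difference between these 2 complexes and the proteasome genes was not tested, nor was the part of gene span in their counts.

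Counts of 22 proteasome genes are uncertain because their exons overlap another annotated gene and the strand setting of the counting is not given. In 9 of them, PSMA1, PSMA2, PSMA6, PSMB9, PSMB10, PSMC2, PSMD9, PSME2 and PSMF1, exons are shared on the same strand. In 19, among them PSMC1, PSMC5, PSMD1, PSME3, PSME4, PSMG3 and PSMG4, they overlap a gene on the opposite strand. Annotated processed copies of the genes held few counts, at most 1.47% of those of the parent gene, for the 13 copies of PSMC1.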

How the data were processed

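The values are raw counts of reads per gene as deposited by the authors, 1 column per library (0 columns were left over). Per the labels, libraries were made with a stranded total RNA kit. Per the submitters' processing notes, Trim Galore 0.65, STAR 2.7.0, HTSeq and GRCh38 were used; the sources used here do not give HTSeq's version or strand setting. The design text mentions CPM and length scaling, which the deposited counts do not carry, and GENCODE release 38. Names, positions and exons were taken from GENCODE release 44, where 61481 of 78932 identifiers matched.

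Genes were filtered with filterByExpr, and TMM factors and edgeR 4.0.16 (R 4.3.3) gave quasi-likelihood tests with robust dispersion, adjusted by Benjamini-Hochberg over 21033 genes at 0.05. The SE of a log2 fold change is its size over the square root of F. CPM uses TMM-scaled library sizes, and log2 values per library a pseudocount of 0.1 CPM. Every pair of libraries of a group differed by more than sampling noise (chi-square over its degrees of freedom at least 4.47), and each counted as 1 replicate. The fit was tested on simulated data. The limits for 0 counts cover counting error only.

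Members and lists were chosen with earlier results of these data known. Values per library are given for PSMB5 to PSMB10, for genes under 1 CPM, for the 8 largest rises and 8 largest falls without overlap, and for PSME2, PSMG4 and PSMD2, which were added after their values were seen. In each list the named genes are the 3 rising and 3 falling ones with the smallest p, or fewer, and some of them are not reported here. The alternatives were size factors of DESeq2 or upper quartiles, the tools DESeq2 1.42.0 and limma-voom (limma 3.58.1), other low-count filters (any gene with 1 count, or a mean of 1 CPM), dispersion without the robust option, removal of mitochondrial genes, a block for the replicate number, omission of each library or of knockdown replicates 1 and 2, and the longest transcript as length. Figures were drawn with matplotlib 3.10.9.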

Additional observations from a re-analysis of the deposited data

Results flagged for a closer look

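In 6 of 96 groups of 5 libraries a single library lay far from the other 4 for a proteasome gene. Chance flags about 1 group in 20 where groups are independent, which genes measured in the same libraries are not. Knockdown replicate 2 was the library in 3 of them. Its PSMB7 level was 53.2 CPM (40.9 to 44.1 CPM in the other 4), its PSMC2 level 34.1 CPM (18.1 to 21.9 CPM) and its PSMD11 level 107 CPM (117 to 120 CPM), each nearer to the controls. Among control libraries, PSMC1 had 128 CPM in replicate 5 (132 to 133 CPM in the other 4), PSMG2 18.8 CPM in replicate 2 (20.9 to 21.5 CPM) and PSMB11 0.0764 CPM in replicate 1 (0 in the other 4). The last rests on 3 counts.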

How the results depend on the processing

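Of the 46 tested genes, 21 of 23 higher and 11 of 12 lower calls were the same under all 20 other fits, the exceptions being PSMB10, PSMD6 and PSMB9. None of the 11 genes that did not pass was the same under all of them: 9 passed in at least 1 fit, and PSMD8 and PSMD14 turned sign. The counts stood at 21 to 27 higher and 11 to 14 lower over all fits, and at 22 to 23 and 11 to 13 with 1 library left out. Apart from CCT5, signs turned only in genes that did not pass in the main test. Under upper-quartile scaling, which moved all genes by 0.20, the log2 fold change was 0.03 for PSMA2, 0.06 for PSMC1, 0.07 for PSMD8 and PSMD14, 0.10 for PSMG1 and 0.02 for CCT5. PSMB1 was -0.11 without knockdown replicates 1 and 2 and -0.02 without the low-count filter, and it ranged from -0.05 to 0.06 with single libraries left out. PSMB2 ranged from -0.01 to 0.10 with single libraries left out, below 0 without knockdown replicate 4 (-0.01) and control replicate 5 (-0.00097). PSMD2 was -0.0028 without the filter and ranged from -0.004 to 0.05 with single libraries left out. With the replicate number as a block (23512 genes tested) PSMB1 was -0.03 and PSMD2 -0.0027, 21 proteasome genes were higher and 12 lower, and PSMB10 and PSMD6 lost their calls. The deviations of same-numbered libraries from their group means correlated at -0.17 to 0.221, and 2 of 5 knockdown libraries correlated best with their own number, so the numbers were not taken as pairs. Without knockdown replicates 1 and 2, 5 ubiquitin genes were higher (3 with them) and 4 antigen presentation genes (2 with them). The number of lower CCT genes, 1, was 0 with DESeq2's size factors, a mean of at least 1 CPM, no filter, the replicate block and upper-quartile scaling, and 0 to 1 with single libraries left out. The causes were not tested. Depth limits PSMA8 and PSMB11.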
